A study of Mus musculus with 12 samples.

Results

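H3K27ac, acetylation of lysine 27 on histone H3, was followed in mouse intestinal organoids given arachidonic acid (AA), across the 62547 regions that the SEACR peak caller marked as acetylated. The members are these peaks with their scores in 4 of the 12 libraries of the series, 2 from organoids given vehicle and 2 from organoids given 25 µM AA, both for 6 days. A second set of 9817 peaks from the MACS2 caller, scored in the same 4 libraries, served as a check. All organoids were grown from isolated mouse crypts in Matrigel, in medium with EGF, Noggin, R-spondin and CHIR-99021, a kinase inhibitor that activates Wnt signalling, so both groups carried these additions. The study's design text speaks of organoids without a Ptger gene and of a prostaglandin arm. The sample labels name no genotype and no such arm, so the genotype of these libraries was not settled. No label ties the 2 libraries of a group to separate animals or cultures. Each p-value rests only on spread between libraries, for most peaks pooled over peaks of like level, and this spread may be technical.

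H3K27ac marks promoters and enhancers that are in use, and it is laid down by acetyltransferases such as p300 and CBP and removed by histone deacetylases. AA is an omega-6 polyunsaturated fatty acid that cells store in membrane phospholipids, convert to prostaglandins and leukotrienes, or burn by fatty acid oxidation. Long fatty acids and some of their oxidised products bind the PPAR nuclear receptors, which in intestinal epithelium switch on genes for fatty acid uptake, ketone production and oxidation. CUT&RUN, the assay used, cuts and releases the DNA next to an antibody-bound mark, here in dissociated organoids.

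A gene-end peak lies within 1 kb of the annotated start or end of a protein-coding gene (12728 peaks), and any other peak is distal (49819 peaks). Of the gene-end peaks, 8426 lay at an annotated start. The deposited score is the mean coverage of a peak in a scale set by the authors. A change is AA minus vehicle of log2(score + 0.0693), with its standard error (SE) from limma. For 89.0% of peaks the spread behind the SE and p was taken from the level of the peak, not from its own libraries. A peak was called when its limma p, adjusted over all 62547 peaks, was under 0.05. Genes were assigned by distance only.

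The sequence at 6 gene starts is given first. Neo1, Hgfac and Slc39a3 had the 3 largest called gene-end rises whose 300-base RefSeq start window overlaps the peak. S100a6 was the called gene of the fetal-like list, and Pdk4 and Fabp1 are fatty acid genes with a called rise upstream of the start. The windows are from build GRCm38.p6 (mm10), written 5′ to 3′ along the gene: Neo1 chr9:59036392-59036691 (minus strand), Hgfac chr5:35041259-35041558 (plus), Slc39a3 chr10:81037266-81037565 (minus), S100a6 chr3:90612644-90612943 (plus), Pdk4 chr6:5496229-5496528 (minus) and Fabp1 chr6:71199629-71199928 (plus). Capitals mark matches on either strand to any of 9 short motifs.
Neo1: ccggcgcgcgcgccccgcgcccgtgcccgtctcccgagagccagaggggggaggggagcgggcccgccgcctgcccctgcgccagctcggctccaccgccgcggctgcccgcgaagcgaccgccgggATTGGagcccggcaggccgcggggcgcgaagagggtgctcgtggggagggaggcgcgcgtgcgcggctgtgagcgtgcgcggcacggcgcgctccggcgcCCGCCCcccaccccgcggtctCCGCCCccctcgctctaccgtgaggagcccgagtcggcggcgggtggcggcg
Hgfac: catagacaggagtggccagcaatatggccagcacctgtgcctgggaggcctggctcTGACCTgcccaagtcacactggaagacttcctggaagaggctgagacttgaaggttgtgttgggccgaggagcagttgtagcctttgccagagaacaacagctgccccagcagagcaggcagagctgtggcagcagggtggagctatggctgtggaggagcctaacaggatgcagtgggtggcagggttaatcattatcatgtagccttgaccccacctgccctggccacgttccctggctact
Slc39a3: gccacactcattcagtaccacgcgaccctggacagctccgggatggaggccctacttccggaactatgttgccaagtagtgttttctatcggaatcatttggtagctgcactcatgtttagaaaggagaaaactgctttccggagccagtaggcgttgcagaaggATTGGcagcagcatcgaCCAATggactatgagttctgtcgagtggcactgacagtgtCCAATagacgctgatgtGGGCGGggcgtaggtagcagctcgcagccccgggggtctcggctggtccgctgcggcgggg
S100a6: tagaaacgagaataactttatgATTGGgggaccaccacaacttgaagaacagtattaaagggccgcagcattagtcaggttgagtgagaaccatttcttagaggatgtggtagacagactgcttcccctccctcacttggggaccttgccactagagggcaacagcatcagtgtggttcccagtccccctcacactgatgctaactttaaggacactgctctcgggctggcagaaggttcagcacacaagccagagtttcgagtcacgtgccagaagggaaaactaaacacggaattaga
Pdk4: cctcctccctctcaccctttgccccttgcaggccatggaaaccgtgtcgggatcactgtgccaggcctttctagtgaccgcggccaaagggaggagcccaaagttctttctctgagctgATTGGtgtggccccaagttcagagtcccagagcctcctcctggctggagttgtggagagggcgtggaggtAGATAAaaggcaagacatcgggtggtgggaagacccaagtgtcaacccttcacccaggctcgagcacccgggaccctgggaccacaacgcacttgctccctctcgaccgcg
Fabp1: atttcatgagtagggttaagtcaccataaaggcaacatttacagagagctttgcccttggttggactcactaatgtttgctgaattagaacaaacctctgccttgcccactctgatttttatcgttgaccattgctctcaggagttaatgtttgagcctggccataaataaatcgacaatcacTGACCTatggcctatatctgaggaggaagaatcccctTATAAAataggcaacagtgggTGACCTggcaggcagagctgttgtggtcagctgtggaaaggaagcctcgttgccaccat

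Motifs were searched on both strands and may overlap each other. The nuclear receptor half-site was read as AGGTCA and the site of GATA factors as AGATAA. Stimulus-driven factors were covered by the AP-1 site TGANTCA and by the cAMP response element, CRE, as TGACGTCA. For Hippo and Wnt signalling the TEAD site was CATTCC and the site of TCF/LEF factors ATCAAAG. General promoter elements were SP/KLF, as CCGCCC, the CCAAT box as named, and the TATA box as TATAAA. Fabp1, which encodes the liver-type fatty acid-binding protein, held a pair of half-sites on the minus strand, from bases 184 and 242 of its window, and a TATA box from base 221. The half-site is the repeat unit that PPAR and other nuclear receptors recognise, and 16.3% of all 32851 start windows of this length held at least 1. Hgfac held 1 half-site, from base 57. Pdk4 held a GATA motif from base 190 and a CCAAT box from base 120, and S100a6 a CCAAT box from base 23. Neo1 held SP/KLF motifs from bases 228 and 249 and a CCAAT box from base 128, and Slc39a3 an SP/KLF motif from base 240 with CCAAT boxes from bases 166, 183 and 223. Over the 20 start windows that overlap a called gene-end rise, 12 held an SP/KLF motif (60%, beside 63.9% of the 10379 start windows under any gene-end H3K27ac peak) and 3 a half-site (15% beside 12.4%). A match is a description of the letters and not a bound site.

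The libraries were of like depth, with a median raw coverage of 1.95 to 2.76 fragments per base, so a weak peak rests on few fragments. Spearman's correlation over all peaks was 0.51 between the vehicle libraries, 0.65 between the AA libraries and 0.54 to 0.59 between libraries of different groups. Epithelial identity was read from markers: all 18 genes of the epithelium list had a gene-end peak, with a median score of 0.42, while 0 of 13 fibroblast genes and 0 of 12 endothelium, glia and neuron genes had one. At distal sites 6 of the 13 and 3 of the 12 had a peak, beside 15 of the 18 epithelial genes. Of 12 blood genes, 3 had one (Cd68, Itgam and Spi1), and 0 of these 3 passed the test.

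At the threshold, 97 peaks (0.155% of 62547) were higher in AA and 28 (0.0448%) were lower, 125 in all (0.2%), and 4821 had an unadjusted p under 0.05. The balance rests on the scaling: with libraries centred on the strongest 25% of peaks there were 39 rises and 62 falls, with quantile normalization 53 and 42. With limma, 0 peaks were called among the strongest 50% of peaks (2968 at an unadjusted p under 0.05), in the MACS2 set (694) and over all peaks without the trend and robust options (3695), so the calls rest on the peak set and on how the spread was moderated. Rises were at both kinds of site. In whole organoids a change in the share of cells and a change within cells cannot be told apart. At gene ends 31 peaks rose (0.244%) and 1 fell (0.00786%), and at distal sites 66 rose (0.132%) and 27 fell (0.0542%). Peaks at an annotated gene start gave 21 rises (0.249%) and 0 falls. Distal peaks in gene bodies gave 26 rises (0.0804%) and 7 falls (0.0217%), and intergenic peaks 40 rises (0.229%) and 20 falls (0.114%). The plot of change against level shows the called peaks of each class.

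**Figure D1:**
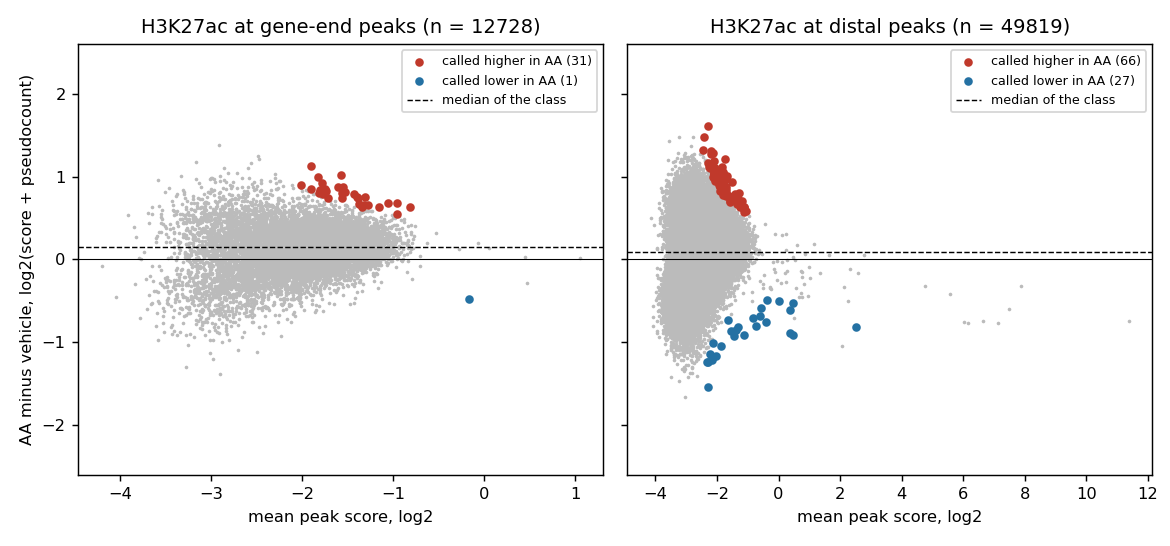
Change in H3K27ac (AA minus vehicle, log2 of score plus pseudocount) against the mean peak score of the 4 libraries (log2), for 12728 gene-end peaks (left) and 49819 distal peaks (right). Grey points are peaks that were not called, red and blue points are the called rises and falls, the solid line is 0 and the dashed line the median of the class, at 0.14 for gene-end and 0.09 for distal peaks.

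In the scores as deposited the change was above 0 at 63.2% of peaks, and more often at gene starts than between genes. The median change over all peaks was 0.11, and it turned to -0.04 with libraries centred on the strongest 25% of peaks, where 50.3% of gene-end and 43.8% of distal peaks were above 0. It was 0.15 at gene starts, where 77.0% of peaks were above 0, 0.12 in gene bodies and 0.05 in intergenic peaks, where 55.0% were above 0. Both AA libraries lay above both vehicle libraries at 37.5% of gene-end and 26.1% of distal peaks, and below both at 6.41% and 11.8%. At gene starts these shares were 40.2% and 5.4%. Stronger peaks shifted more: with peaks split into 10 equal bins of mean score, the median change went from -0.09 in the weakest bin to 0.16 in the strongest.

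The median scores of the libraries separated by group at gene ends but not at distal peaks. The median gene-end score was 0.253 and 0.241 in vehicle and 0.29 and 0.266 in AA, and the median distal score was 0.173 and 0.164 in vehicle and 0.186 and 0.173 in AA. AA replicate 2 was thus at the level of vehicle replicate 1 at distal peaks. The gene-end level less the distal level, in log2, was 0.41 and 0.41 in vehicle and 0.49 and 0.47 in AA, 0.07 higher in AA. With 2 libraries against 2 the exact two-sided permutation test gave its smallest possible p, 0.333. In MACS2 peaks the same difference was close to 0, at -0.00511, so the rise was not seen there.

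AA replicate 1 carried much of the called signal. It was the higher of the AA libraries at 79 of the 97 called rises, beside 36333 of all 62547 peaks. Without it 0 peaks were called, without AA replicate 2 35 were (6 higher and 29 lower), without vehicle replicate 1 67 and without vehicle replicate 2 120, each fit assuming that the lone library varies like the other group. Of the 125, 31 passed in none of them, 77 in 1, 14 in 2 and 3 in 3: the Neo1 start and intergenic falls on chromosomes 12 and 16.

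The largest gene-end rises were at Ppp1r3e, Neo1 and Ncoa6. The peak at Ppp1r3e (chr14:54877157-54878441), which encodes a subunit that targets protein phosphatase 1 to glycogen, scored 0.14 and 0.142 in vehicle and 0.446 and 0.339 in AA. Both AA libraries were well above both vehicle libraries, and the change was 1.13 ± 0.22 (SE, n = 2 libraries a group, limma adjusted p = 0.00103).

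The start of Neo1, which encodes neogenin, a receptor for netrins and repulsive guidance molecules, was the gene-end peak with the smallest adjusted p. This peak (chr9:59036598-59038154) takes in the upstream part of the window printed above. It scored 0.195 and 0.196 in vehicle and 0.572 and 0.383 in AA, a change of 1.02 ± 0.18 (limma adjusted p = 0.000117). The vehicle libraries agreed closely, and the AA libraries were spread but did not overlap them.

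Ncoa6, a nuclear receptor coactivator that works with PPARs and other receptors, had a start peak (chr2:155473863-155474603) with scores of 0.15 and 0.161 in vehicle and 0.574 and 0.243 in AA. Its change of 1.00 ± 0.21 (limma adjusted p = 0.00455) rests mainly on AA replicate 1. S100a6, which encodes a calcium-binding protein of the fetal-like epithelium, had a peak over its whole start window (chr3:90612348-90615977, shared with S100a5) that scored 0.301 and 0.229 in vehicle and 0.535 and 0.448 in AA. That change was 0.75 ± 0.16 (limma adjusted p = 0.00637), and both AA libraries were higher. The start of another gene of the same chromosome 3 cluster, S100a1, picked out after its values were seen, rose by 0.74 (limma adjusted p = 0.0475).

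Only called peaks with both AA libraries above both vehicle libraries could be among the 10 largest, and all 31 called gene-end rises met this. Other gene-end rises among the 10 largest went from 0.84 to 0.93. They were at Mybpc2 (a myosin-binding protein, sharing its peak with Spib), Arhgef17 (a guanine nucleotide exchange factor), the 3′ end of Atp6v0a1 (a subunit of the vacuolar proton pump), Klhl42 (a cullin adaptor), Hgfac (the protease that activates hepatocyte growth factor, sharing its peak with Rgs12) and Slc39a3 (a zinc importer). Slc39a3 scored 0.215 and 0.158 in vehicle and 0.444 and 0.331 in AA. Of the 31 called gene-end rises, the smallest was 0.54.

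The single gene-end fall was at the 3′ end of Wls, which encodes the carrier that brings Wnt ligands to the cell surface. The peak (chr3:159939229-159939682) scored 1.05 and 1.00 in vehicle and 0.538 and 0.959 in AA, a change of -0.47 ± 0.12 (limma adjusted p = 0.0389). Only AA replicate 1 was far below vehicle. This short peak overlaps one of the strongest H3K27me3 peaks, as many of the distal falls did.

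**Figure D2:**
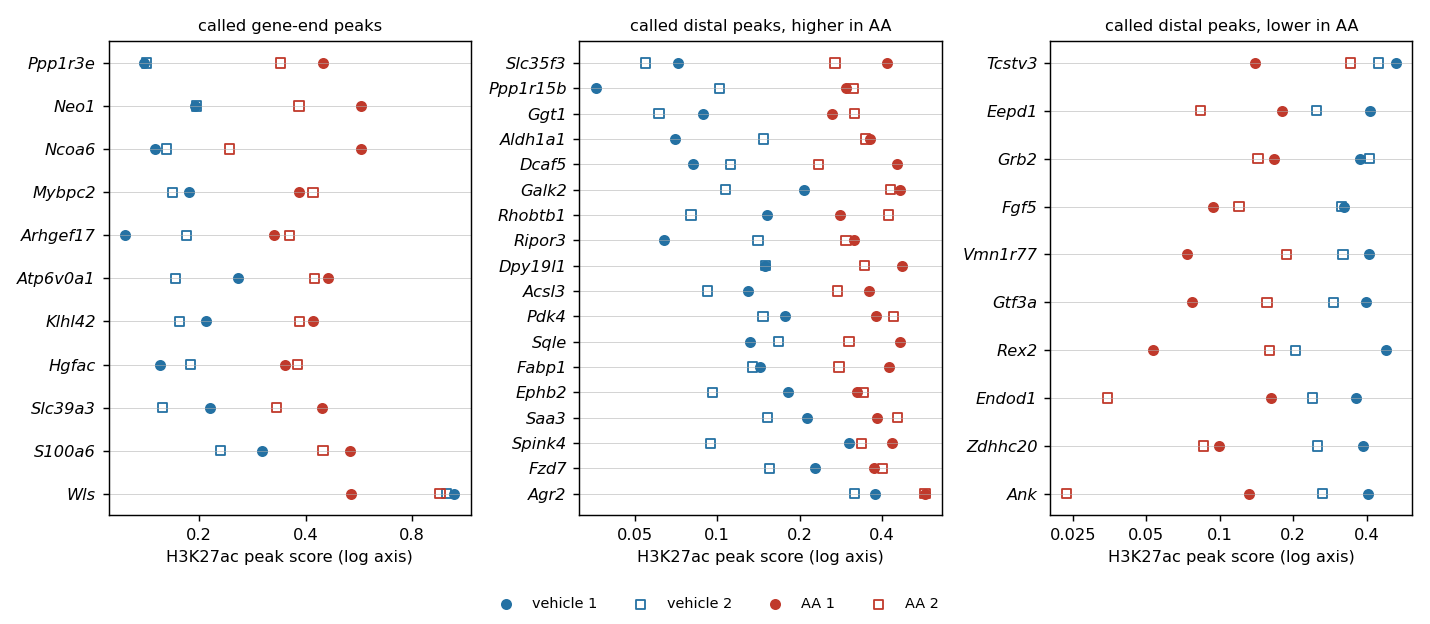
H3K27ac peak score (log axis) in each of the 4 libraries at the named called peaks, for gene-end peaks (left), distal rises (middle) and distal falls (right), each ordered by change. Blue marks are vehicle, red marks are AA, filled circles replicate 1 and open squares replicate 2; in every row the red marks lie on one side of the blue ones, closest at Wls.

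Distal rises reached larger changes than gene-end ones. The largest was 44638 bp upstream of Slc35f3, a thiamine transporter gene, where the peak (chr8:126092706-126093760) scored 0.072 and 0.0549 in vehicle and 0.416 and 0.269 in AA, a change of 1.61 ± 0.32 (limma adjusted p = 0.00179). Inside Aldh1a1, which encodes a retinaldehyde dehydrogenase that makes retinoic acid, a peak (chr19:20529316-20531412) scored 0.0705 and 0.147 in vehicle and 0.36 and 0.347 in AA, a change of 1.28 ± 0.26 (adjusted p = 0.00232). At each site at least 1 vehicle score was near the pseudocount, so this scale understates the change.

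Galk2, a kinase gene of galactosamine metabolism, held the called rise with the smallest adjusted p. Its peak inside the gene (chr2:125897717-125899554) scored 0.208 and 0.108 in vehicle and 0.463 and 0.429 in AA, a change of 1.22 ± 0.20 (limma adjusted p = 1.2e-05). Ppp1r15b, which encodes the standing phosphatase subunit that reverses the integrated stress response, had a peak 6441 bp away (chr1:133122661-133124725) with scores of 0.0361 and 0.102 in vehicle and 0.297 and 0.313 in AA, a change of 1.48 ± 0.34 (adjusted p = 0.0136). The other distal rises among the 10 largest were at Ggt1 (which splits glutathione at the cell surface), Dcaf5 (a cullin ligase receptor), Rhobtb1, Ripor3, Dpy19l1 and Acsl3, at 1.10 to 1.32.

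The called distal rise of Pdk4 was the clearest among the fatty acid genes. Pdk4 encodes the kinase that shuts pyruvate dehydrogenase when cells burn fat, and it is a textbook PPAR target. The peak 12175 bp upstream (chr6:5508453-5512251) scored 0.177 and 0.147 in vehicle and 0.379 and 0.441 in AA, a change of 1.05 ± 0.20 (limma adjusted p = 0.000929). At the start itself (chr6:5495768-5497760, around the window printed above) the scores were 0.18 and 0.163 in vehicle and 0.322 and 0.297 in AA, a change of 0.65 ± 0.23 that did not pass over all peaks (adjusted p = 0.315). Both peaks showed the same order of libraries by group, with no overlap.

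Fabp1 gave a like pair. The peak 13665 bp upstream of its start (chr6:71183222-71186214) scored 0.143 and 0.134 in vehicle and 0.423 and 0.279 in AA, a change of 0.99 ± 0.24 (limma adjusted p = 0.0205). The peak over the start (chr6:71199064-71203383) scored 0.18 and 0.145 in vehicle and 0.267 and 0.258 in AA, a change of 0.52 ± 0.25 (adjusted p = 0.626). H3K4me3 at the 2 upstream peaks had changes of -0.77 (Pdk4) and -0.81 (Fabp1), and the difference between the marks did not pass at either.

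Other listed genes with a called distal rise came from lipid, secretory and inflammatory groups. Sqle, which encodes squalene epoxidase of sterol synthesis, scored 0.132 and 0.168 in vehicle and 0.465 and 0.303 in AA at a peak 7869 bp away, a change of 1.03 ± 0.22 (limma adjusted p = 0.00386). Acsl3, an acyl-CoA synthetase that activates long fatty acids including AA, scored 0.129 and 0.0924 in vehicle and 0.36 and 0.275 in AA at a peak 5006 bp upstream, a change of 1.10 ± 0.27 (adjusted p = 0.0352). Saa3, which encodes an acute-phase serum amyloid, scored 0.212 and 0.153 in vehicle and 0.384 and 0.456 in AA at a peak 2758 bp upstream, a change of 0.96 ± 0.19 (adjusted p = 0.00179). In all of these peaks both AA libraries were above both vehicle libraries, as they were at all 66 called distal rises.

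Single peaks of crypt and goblet genes were also among them. A rise was called inside Ephb2, the receptor that positions crypt cells (0.98 ± 0.24, limma adjusted p = 0.0355), the only call among 162 distal peaks of the stem cell list. The strongest distal peak of Ephb2 had a change of 0.25 and was not called. A rise was called 15166 bp downstream of the start of Fzd7, a Wnt receptor of stem cells (0.82 ± 0.20, adjusted p = 0.0219). Near the goblet genes Agr2, a disulfide isomerase needed for mucin, and Spink4, a protease inhibitor, the changes were 0.63 ± 0.15 and 0.87 ± 0.20 (adjusted p = 0.0149 for each), though the strongest distal peak of Spink4 was another, at 0.37 and not called. Agr2 had the tightest values, 0.377 and 0.317 in vehicle and 0.575 and 0.574 in AA.

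The falls were short, with a median length of 773 bases at distal sites beside 1502.5 for the distal rises. Of the 28 falls, 18 overlapped an H3K27me3 peak in the top 1% of that mark by score, beside 277 of all 62547 peaks (0.443%) and 0 of the 97 rises. The strongest, an intergenic peak on chromosome 2 (98663632 to 98664247) with no gene within 50 kb, scored 6.87 and 7.66 in vehicle and 3.001 and 5.53 in AA, a change of -0.82. Where an H3K4me3 peak overlapped a fall, its change was below 0 at 23 of 24, beside 14890 of 21715 at all distal pairs, the class of 23 of the 24. All 277 peaks with strong H3K27me3 had a median change of -0.08, and 171 of them were below 0. Whether their signal is specific to any of the marks was not tested. Without them 95 rises and 10 falls were called.

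The largest named fall was inside Ank, which encodes a pyrophosphate transporter. It scored 0.405 and 0.263 in vehicle and 0.131 and 0.0235 in AA (chr15:27467893-27468801), a change of -1.54 ± 0.32 (limma adjusted p = 0.00307). A peak 25295 bp upstream of Grb2, the adaptor that links growth factor receptors to Ras, scored 0.377 and 0.411 in vehicle and 0.167 and 0.143 in AA, a change of -1.05 ± 0.21 (adjusted p = 0.00179). A peak 22425 bp from Fgf5, a fibroblast growth factor gene, scored 0.324 and 0.315 in vehicle and 0.0934 and 0.12 in AA, a change of -1.15 ± 0.28 (adjusted p = 0.0222). In both of these the libraries of a group lay close together. The other named distal falls, -0.92 to -1.24, were near Zdhhc20 (a palmitoyltransferase), Endod1, Rex2, Gtf3a (a factor for 5S ribosomal RNA genes), Vmn1r77 (a vomeronasal receptor), Eepd1 and Tcstv3. Of the distal falls named in this paragraph, those near Vmn1r77 and Tcstv3 are among the peaks with strong H3K27me3. The gene-end fall at Wls is also among them.

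For the gene lists each gene was read at its strongest gene-end peak and its strongest distal peak. Over all genes read, 33 of 11865 were called higher at the gene end (0.278%) and 1 lower (0.00843%), the median change was 0.15, 78.1% were above 0, 41.4% had both AA libraries above both vehicle libraries and 5.06% both below. At distal peaks 36 of 10929 genes were called higher (0.329%) and 10 lower (0.0915%), the median was 0.11, 64.7% were above 0, 30.9% had both AA libraries above and 9.82% both below. The list counts below stand beside these values and carry no test of their own. The plot of list medians gives 25 lists.

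**Figure D3:**
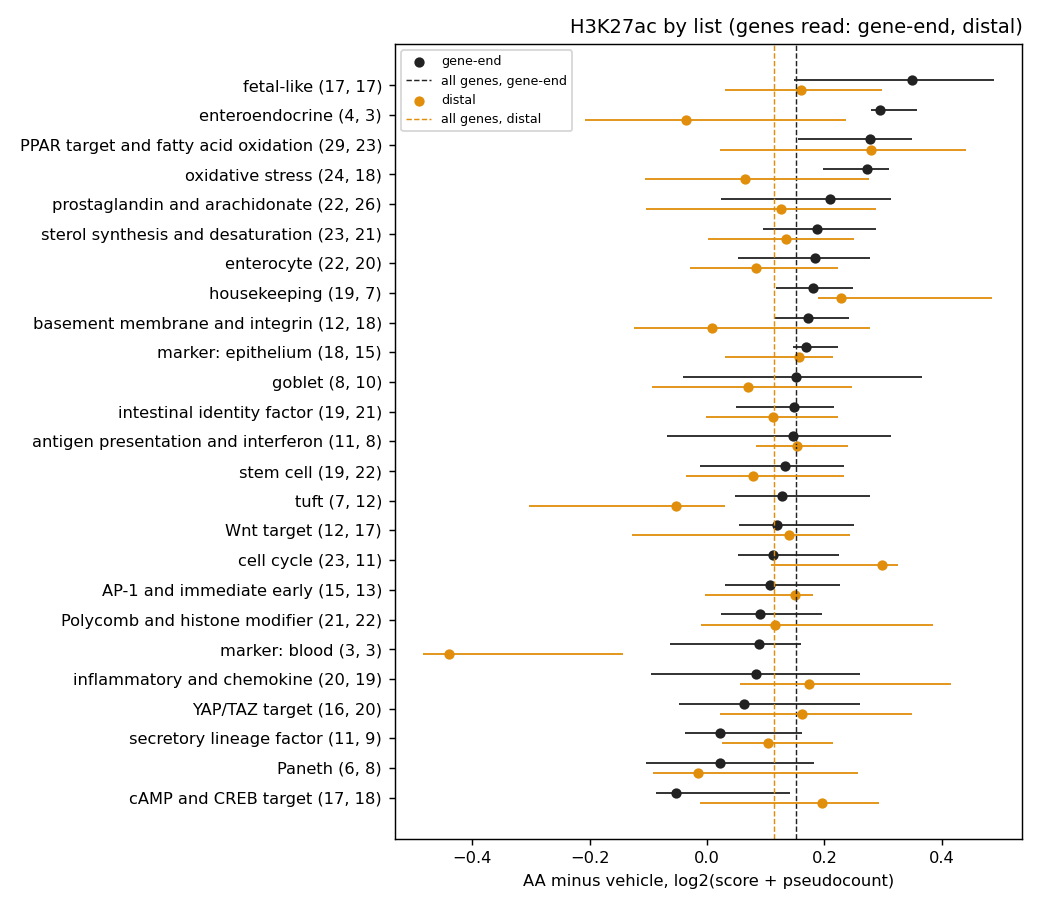
Median change in H3K27ac (points) and the range between the quartiles (lines) for each gene list, AA minus vehicle on the log2(score + pseudocount) scale, at gene-end (black) and distal peaks (orange). Dashed lines are the medians over all genes, 0.15 at gene-end and 0.11 at distal peaks, and the numbers beside each name are the genes read in the 2 classes.

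Genes of fatty acid oxidation and PPAR targets had higher medians than all genes at both kinds of site. Of 30 listed, 29 were read at a gene end, where 28 had a change above 0 and 22 had both AA libraries above vehicle, with a median of 0.28 and 0 called. Housekeeping genes had 18 of 19 above 0 and 12 with both AA libraries above vehicle, with a median of 0.18. Epithelium markers had 17 of 18 and 14, with a median of 0.17. The share above 0 was thus not particular to the fatty acid list. Hadha and Hadhb, which encode the subunits of the trifunctional oxidation enzyme, share 1 start peak, so the 29 genes are 28 peaks. At distal peaks 23 were read, 18 were above 0, 12 had both AA libraries above, the median was 0.28, and Pdk4 and Fabp1 were called. Over all 102 distal peaks of the list the median was 0.14, beside 0.09 for all 49819 distal peaks. The distal excess was thus smaller than at the strongest peak of each gene.

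The largest gene-end changes of the list were at Pdk4, then Cyp4a10 (a fatty acid omega-hydroxylase, 0.55), Fabp1 and Angptl4 (an inhibitor of lipoprotein lipase, 0.52), and in each the groups did not overlap. Other PPAR targets lay lower or overlapped, with Plin2, a lipid droplet coat gene, at 0.11 and overlapping groups, and Cd36, a fatty acid uptake receptor gene, at 0.35 and overlapping. Angptl4 scored 0.158 and 0.214 in vehicle and 0.297 and 0.291 in AA at the gene end, and 0.242 and 0.165 against 0.332 and 0.319 at a distal peak. Both Angptl4 peaks missed the threshold over all peaks (limma adjusted p of 0.533 and 0.398).

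The 3 receptor genes were read at their starts. The start of Pparg went from 0.25 and 0.262 in vehicle to 0.388 and 0.344 in AA (change 0.42), and that of Ppard from 0.186 and 0.189 to 0.275 and 0.266 (change 0.40). The start of Ppara, at 0.253 and 0.25 in vehicle and 0.194 and 0.263 in AA, had a change of -0.12 and overlapping groups. None of the 3 passed. Cpt1a, the gate for fatty acids into mitochondria, went from 0.406 and 0.405 to 0.538 and 0.472 (change 0.27, limma adjusted p = 0.673), while the intestinal binding protein gene Fabp2 had a change of 0.00 at the start and 0.02 at its distal peak.

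**Figure D4:**
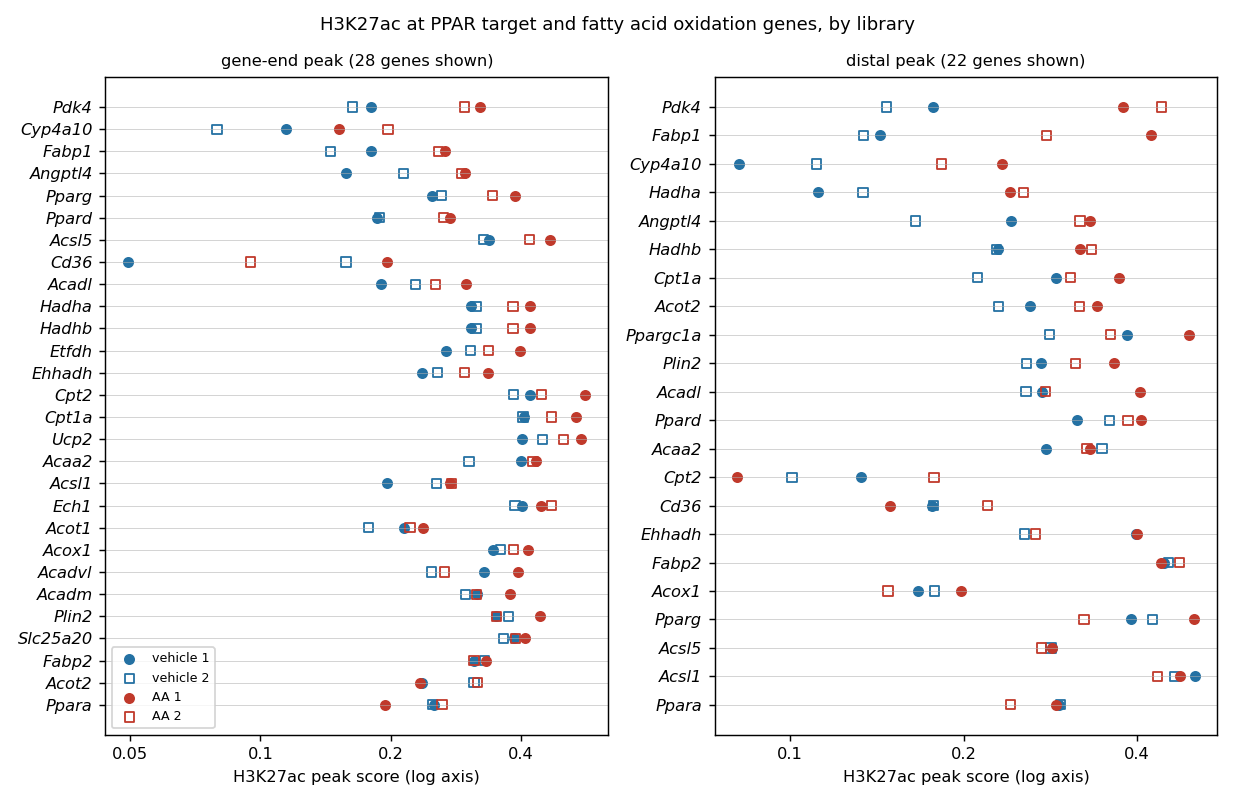
H3K27ac score (log axis) in each library for genes of the PPAR target and fatty acid oxidation list, at the gene-end peak (left, 28 of the 29 genes read) and the distal peak (right, 22 of 23), ordered by change. Blue marks are vehicle and red marks AA; red lies wholly to the right of blue for 21 of those shown at the gene end and 11 at the distal peak.

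Read by library, the list's distal median stood 0.24 and 0.17 above that of all genes in vehicle and 0.40 and 0.41 above it in AA, with no overlap. At gene ends the values were -0.04 and 0.14 in vehicle and 0.19 and 0.09 in AA, where vehicle replicate 2 lay above AA replicate 2. The list's median change less that of all genes stayed between 0.10 and 0.20 at gene ends and between 0.10 and 0.22 at distal peaks over 9 other scalings, pseudocounts and sets of libraries, of which the 2 that centre each library cannot move it. Centred on the strongest 25% of peaks, where 52.1% of all genes were above 0 at the gene end, 23 of the 29 were. At distal peaks 13 of the 23 were, beside 46.0% of all genes, and with median centring also 13, beside 55.7% of all genes.

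Genes of the oxidative stress response, most of them targets of NRF2, gave 24 of 24 gene-end changes above 0, with a median of 0.27. Both AA libraries were above vehicle at 16 of them and 0 were called. Beside this, housekeeping genes had 18 of 19 above 0 and 12 with both AA libraries above vehicle. Centred on the strongest 25% of peaks, 21 of the 24 were above 0. The largest were Gsta2 (a glutathione transferase, 0.45), Gpx4 (which repairs lipid peroxides, 0.42 at the 3′ end) and Gclc (the limiting enzyme of glutathione synthesis, 0.40). Gclc scored 0.407 and 0.344 in vehicle and 0.555 and 0.48 in AA. Nfe2l2, the gene of NRF2, went from 0.368 and 0.388 to 0.489 and 0.448 (change 0.27, limma adjusted p = 0.705). At distal peaks the list had a median of 0.06, below that of all genes, with 4 of 18 genes having both AA libraries above vehicle.

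The fetal-like list, genes of the regenerating epithelium, had the highest gene-end median, 0.35 over 17 genes, with 15 above 0, 12 with both AA libraries above vehicle and S100a6 called. Sprr1a, a cornified envelope gene, scored 0.088 and 0.112 in vehicle and 0.367 and 0.165 in AA (change 0.92, limma adjusted p = 0.321), and Anxa3, an annexin gene, 0.151 and 0.106 against 0.317 and 0.253 (0.85, adjusted p = 0.224). Anxa1 went from 0.175 and 0.121 to 0.243 and 0.246 (0.54) and Ly6a from 0.14 and 0.161 to 0.218 and 0.12 (0.09). The groups overlapped at Ly6a but not at the other 3. The list's median less that of all genes was 0.20, and 0.09 to 0.23 in the same 9 other settings. The distal median of the list was 0.16, with 14 of 17 genes above 0 and 9 with both AA libraries above vehicle. Over all 48 distal peaks of the list it was 0.11, beside 0.09 for all 49819 distal peaks. The distal peak at Ly6a, 1691 bp away, went from 0.174 and 0.159 to 0.293 and 0.274 (0.58, limma adjusted p = 0.49). That of Anxa1 had a change of -0.07 and overlapping groups.

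Genes of prostaglandin and AA metabolism were read at 22 gene ends, with a median of 0.21, 12 with both AA libraries above vehicle and 0 called. Lta4h, which makes leukotriene B4, went from 0.413 and 0.36 to 0.49 and 0.512 (change 0.32) and Lpcat3, which puts AA into phospholipids, from 0.39 and 0.31 to 0.427 and 0.448 (0.28). The receptor gene Ptger4 had a start change of 0.24 and the prostaglandin-degrading Hpgd one of 0.02. Ptgs2, the inducible cyclooxygenase gene, had no gene-end peak, and its distal peak was weak, at 0.0859 and 0.109 in vehicle and 0.249 and 0.0607 in AA.

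The cAMP and CREB target list, genes that prostaglandin receptors can induce through cAMP, had the lowest gene-end median of the 25 lists, -0.05 over 17 genes, with 8 above 0, 4 with both AA libraries above vehicle, 3 with both below and 0 called. Nr4a2 went from 0.343 and 0.395 in vehicle to 0.288 and 0.332 in AA (change -0.21) and Nr4a1 from 0.2 and 0.23 to 0.0957 and 0.209 (-0.40), both orphan nuclear receptors. Junb, an AP-1 subunit, went the other way, from 0.343 and 0.325 to 0.457 and 0.475 (0.41, limma adjusted p = 0.406). The list's gene-end median less that of all genes was -0.21, and -0.22 to -0.07 in the 9 other settings. At the strongest distal peak of each gene its median was 0.20, above that of all genes. Over all 157 distal peaks of the list the median was 0.08, beside 0.09 for all 49819 distal peaks.

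The gene-end medians of stem, Wnt, YAP and cell type lists were 0.13 for stem cell, 0.12 for Wnt target, 0.06 for YAP/TAZ target, 0.18 for enterocyte, 0.15 for goblet, 0.02 for Paneth, 0.29 for enteroendocrine (4 genes read), 0.13 for tuft genes and 0.02 for secretory lineage factors. At distal peaks 0 of 12 tuft genes had both AA libraries above vehicle, with a median of -0.05. At single genes, Lgr5, the stem cell receptor, went from 0.242 and 0.274 in vehicle to 0.315 and 0.266 in AA, and Olfm4, another crypt stem cell gene, from 0.238 and 0.248 to 0.296 and 0.324. The enterocyte gene Sis, sucrase-isomaltase, was the one fixed gene whose AA start scores both lay below vehicle, at 0.242 and 0.239 against 0.172 and 0.238. None of these 3 passed. Tead1, a YAP partner, had one of the strongest distal peaks, at 0.466 and 0.494 in vehicle and 0.598 and 0.605 in AA (change 0.29, limma adjusted p = 0.578). Housekeeping genes had a gene-end median of 0.18, with 18 of 19 above 0 and 12 with both AA libraries above vehicle. Actb was at 0.22 and Gapdh at -0.01.

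Acetylation was compared with H3K4me3, the promoter mark scored in its own 4 libraries from the same 2 treatments, at 32840 overlapping peak pairs. At the called gene-end rises H3K4me3 had a change above 0 at 26 of 31, beside 8797 of 11125 at all gene-end pairs. At the called distal rises it was above 0 at 23 of 55, beside 6825 of 21715 at all distal pairs. The 2 marks changed unequally at 11 pairs (0.0335%, limma interaction), 9 with acetylation above (0.0274%) and 2 below, and 4478 pairs had an unadjusted p under 0.05. None of the 11 was called for acetylation itself.

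At those 9, H3K4me3 was lower in both AA libraries than in both vehicle libraries, while the acetylation change ranged from -0.54 to 0.62. Nr0b2, which encodes SHP, the receptor that holds back bile acid synthesis, had H3K4me3 scores of 0.45 and 0.523 in vehicle and 0.11 and 0.0827 in AA. Its acetylation was 0.186 and 0.179 in vehicle and 0.222 and 0.257 in AA, and the changes differed by 2.37 ± 0.37 (adjusted p = 0.0224). Esrrg, an orphan receptor of oxidative metabolism, differed by 2.45 ± 0.37 (adjusted p = 0.0204), with H3K4me3 from 0.899 and 0.767 to 0.119 and 0.0552 and acetylation from 0.357 and 0.331 to 0.237 and 0.196. Pfkfb3, which drives glycolysis, had the largest acetylation change of the 11, from 0.193 and 0.18 to 0.348 and 0.3, beside H3K4me3 at 1.02 and 0.989 in vehicle and 0.634 and 0.546 in AA. S100a6 stood at the other end, with an H3K4me3 change of 2.15 beside 0.75 for acetylation, a difference that did not pass (adjusted p = 0.0715).

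**Figure D5:**
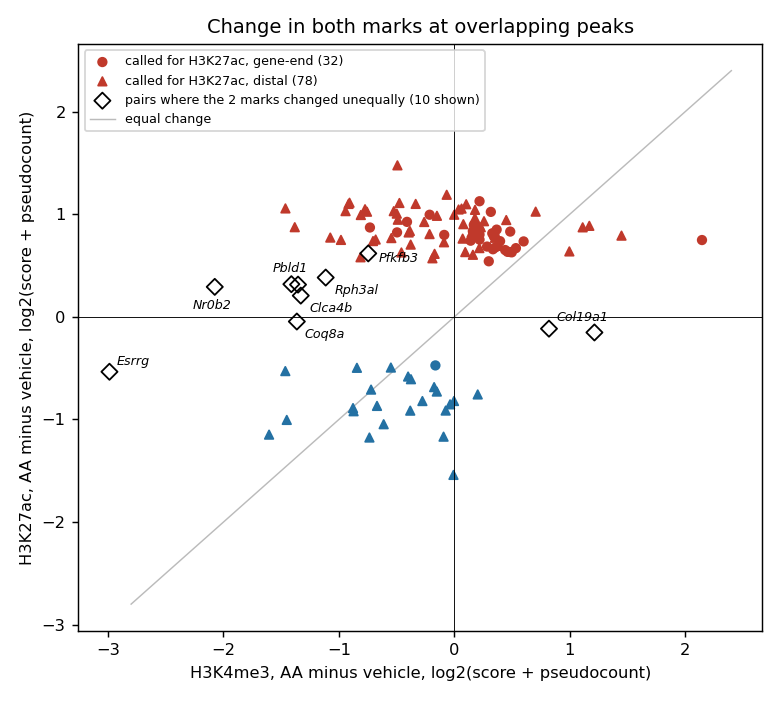
Change in H3K27ac against change in H3K4me3 (both AA minus vehicle, log2 of score plus pseudocount) at peaks called for H3K27ac that overlap an H3K4me3 peak, 32 gene-end (circles) and 78 distal (triangles), red for rises and blue for falls. Diamonds are 10 of the 11 pairs at which the marks changed unequally, 8 of them above the grey line of equal change.

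These 11 depended on scaling and on the H3K4me3 libraries. With each library centred on its median 72 pairs differed, 8 with acetylation above and 64 below, so the split turned. Without H3K4me3 AA replicate 2 18 pairs differed, 8 of the 11 among them, and without H3K4me3 AA replicate 1 1650 did. Without either H3K4me3 vehicle library 1 pair differed, so 10 of the 11 calls ended.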

How the data were processed

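Peak scores for H3K27ac, H3K4me3 and H3K27me3 were used as the authors deposited them, 1 score per peak and library on build mm10. Peaks came from SEACR and MACS2, per the submitters' processing notes; their versions, the aligner, the scaling and the basis of peak calling (per library or pooled) were not given in the sources used here. Multiplied by peak length, 100% of scores under 1000 steps came out whole in a step particular to the library (tolerance 0.1 step), which fits coverage averaged over the peak and scaled. Rows named control were taken as vehicle.

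Gene positions were RefSeq's for that build (21883 protein-coding genes), strand from RefSeq start windows. The distal gene was the overlapping gene body or the nearest gene within 50 kb. Changes were tested by limma 3.58.1 (R 4.3.3; trend and robust moderation) on log2(score + 0.0693), the pseudocount being the 5th percentile of positive scores (0.0253 for H3K4me3), with Benjamini-Hochberg adjustment at 0.05. For 89.0% of peaks the spread was taken from the level alone. Interactions used each H3K27ac peak and its most overlapping H3K4me3 peak. The test was tried on simulated data.

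Named genes were the 10 largest rises and falls per class whose libraries separate by group, leaving out predicted genes, then at most 3 called genes of each list in each class, and a fixed set of genes. The members and lists were chosen with earlier results of these data known. Of the list entries, 4 had no match. Values of some genes are not reported here. Alternatives covered scaling, pseudocount, level filter, peak caller, moderation, threshold, gene-end window, libraries and a replicate block.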

Additional observations from a re-analysis of the deposited data

Results flagged for a closer look

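The 11 pairs of overlapping peaks at which AA changed H3K27ac and H3K4me3 unequally stand out because the difference itself passed the test (limma interaction adjusted over 32840 pairs). For 10 of them, the H3K27ac change less the H3K4me3 change follows. It was 2.45 at Esrrg, 2.37 at Nr0b2, 1.73 at an intergenic pair on chromosome 5, 1.67 at Pbld1, 1.54 at Clca4b, 1.498 at Rph3al (a granule exocytosis protein), 1.36 at Pfkfb3 and 1.32 at Coq8a (a factor of coenzyme Q synthesis). It was -0.94 inside Col19a1, a collagen gene, and -1.37 at an intergenic pair on chromosome 12. At Col19a1 H3K4me3 went from 8.20 and 7.16 in vehicle to 13.1 and 14.01 in AA. At the chromosome 12 pair it went from 1.17 and 1.14 to 2.59 and 2.84. Both overlap an H3K27me3 peak in the top 1%. The Col19a1 peak scored 4.96 and 5.33 for H3K27ac in vehicle and 5.27 and 4.27 in AA. The strongest of 10 equal bins of H3K27ac peaks had a median score of 0.36. Whether signal this high in all 3 marks is specific to any of them was not tested. Without H3K4me3 vehicle replicate 1, and likewise without replicate 2, 1 of the 11 was still called, and with each other library left out 8 to 11 were. With 2 libraries a group, no library could be tested as an outlier.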

How the results depend on the processing

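With each library left out in turn, calls ranged from 0 to 120 over all peaks (0 to 67 higher, 0 to 53 lower), from 0 to 29 at gene ends and from 0 to 91 at distal sites, and unequal pairs of marks from 1 to 1650. Calls fell to 0 with the strongest 50% of peaks, with MACS2 peaks and without trend and robust moderation. Of the 40 called named peaks, 16 have a MACS2 peak, and 0 of these passed there. All 16 kept their direction, but the scores come from the same 4 libraries, so this is no independent check. At a threshold of 0.01, 54 peaks passed (36 higher and 18 lower, 15 at gene ends and 39 distal). There were 39 rises and 62 falls when libraries were centred on the strongest 25% of peaks, and 53 rises and 42 falls under quantile normalization, so the excess of rises depends on the scaling, while centring on the median gave 79 and 31. Of the 125 called peaks, 94, 57 and 67 passed again with median centring, the strongest 25% and quantile normalization. With median centring the Neo1 start and the intergenic fall on chromosome 12 passed (limma adjusted p = 5.7e-05 and 1.76e-10). The intergenic fall on chromosome 16 (98107467 to 98107774) did not (limma adjusted p = 0.877). The labels do not say whether replicate numbers pair these libraries. The correlation of same-numbered deviations was 0.01, which cannot settle it. A replicate block gave 280 calls (243 higher, 95 at gene ends, 185 distal), 124 of them shared with the main fit, and 15 unequal pairs. Chosen after seeing the data, the fit without peaks high in H3K27me3 gave 10 lower, and peaks at gene starts alone gave 21 calls. Unequal pairs numbered 72 with centring and 29 with the stricter peak overlap. The difference between AA and vehicle in the gene-end less distal level was lost in MACS2 peaks, at -0.00511. Of 65 named peaks that did not pass, none passed in another setting, and 86 of their 917 values changed sign. Of the 10 equal bins of mean score, the 5 weakest held 0 calls. The parts of depth and pseudocount in this were not tested.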
